A study of Mus musculus with 24 samples.

Results

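The transcriptomes of KLRG1+ regulatory T cells (kTreg cells) and resting regulatory T cells (rTreg cells) from the spleens of old mice were compared. The study sorted rTreg, activated (aTreg) and kTreg cells by flow cytometry from 4 young and 4 old mice and sequenced their polyA RNA, which gave 24 libraries. The comparison used 8 of these, the 4 old kTreg and the 4 old rTreg libraries, with 1 library of each kind from each old mouse. All genes with a normalized count of 10 or more in at least 4 of the 8 libraries were kept, which left 14745 of the 17464 genes listed. The mice were wild type of the strain labelled C57BL/6JRccHsd, with no treatment given in the labels, and were 26 months old (old) or 2 months old (young). By the labels, kTreg cells were KLRG1+, rTreg cells CD44- and aTreg cells CD44+, both of the latter also sorted on a further surface marker. A lower level of a gene in a sorted population can mean fewer cells that express it or less of its RNA per cell, and these cannot be told apart in bulk libraries.

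Regulatory T cells (Treg cells) are CD4+ T cells that restrain immune responses and are programmed by the transcription factor FOXP3. Resting Treg cells circulate through lymphoid organs with homing receptors such as CCR7, under transcription factors shared with naive T cells such as TCF1 and LEF1. Effector Treg cells lose these, gain factors such as BLIMP1 and GATA3 together with suppressive and tissue repair mediators, and in many tissues carry ST2, the receptor for IL-33. KLRG1 is an inhibitory lectin-like receptor for cadherins that marks highly differentiated lymphocytes.

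The 8 libraries held between 15045747 and 29521942 reads on the listed genes. Old rTreg libraries had 1215 to 2756 genes at 0 and old kTreg libraries 575 to 914. All 8 carried Cd4, the co-receptor of helper T cells, at 9973 to 16210 normalized counts and Foxp3 at 13151 to 37793. Old rTreg libraries also held more RNA of some other leukocytes. The 18 listed genes of basophils and mast cells summed to 10653 to 27799 normalized counts in old rTreg and 2679 to 3631 in old kTreg libraries, and none of the 18 was at 0 in every library of either group. The 19 neutrophil genes summed to 11127 to 52327 in old rTreg and 3551 to 5827 in old kTreg libraries. In rTreg mice 1 and 4 a large part of this sum was Lyz2, a lysozyme gene shared with macrophages. The neutrophil genes Ngp and S100a9 were near 0 in those 2 libraries. The 15 plasma cell genes summed to 20794 to 26795 in old rTreg and 18678 to 20192 in old kTreg libraries. The 106 immunoglobulin segments summed to 100433 to 157907 in old rTreg and 52524 to 115298 in old kTreg libraries. The sums of B cell genes overlapped, at 49806 to 92676 in old rTreg and 64720 to 90290 in old kTreg libraries, and were higher in kTreg cells in mice 2, 3 and 4. Those of dendritic cell genes overlapped as well, at 2176 to 3273 and 2581 to 3225. For basophil, neutrophil and plasma cell genes the old rTreg library of mouse 3 was the highest of the 8. Immunoglobulin segments and the genes of these and of 9 further blood cell lists are called genes of other cells below.

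**Figure D1:**
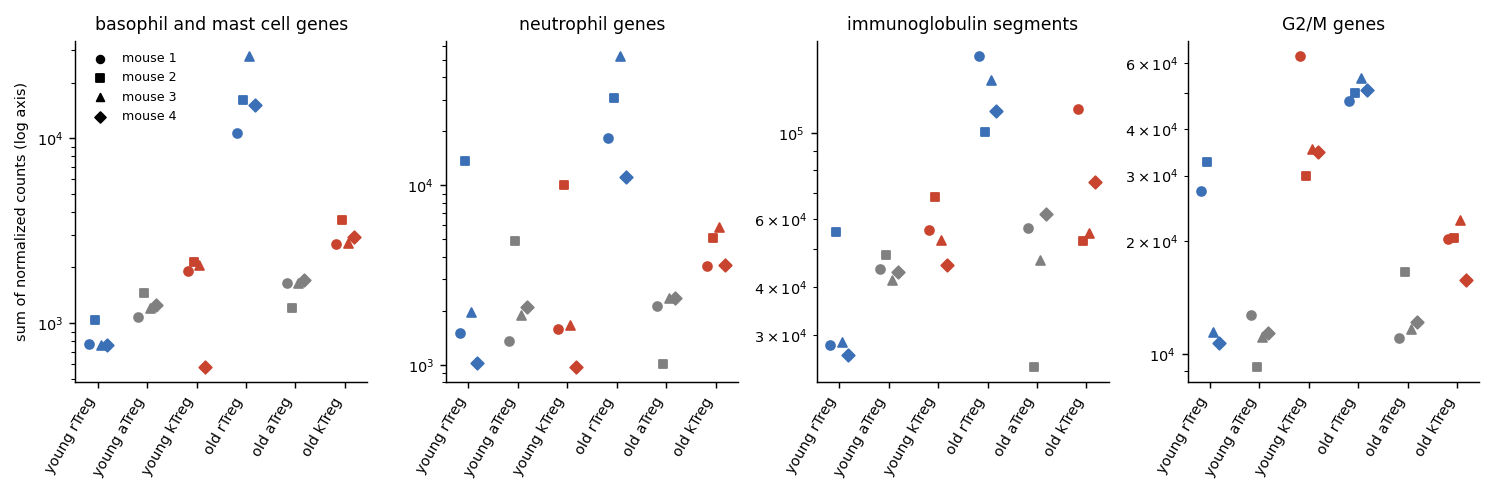
Sums of normalized counts over marker lists (log axes) in the 24 libraries, 1 point a library, with colours for the subset and symbols for the mouse number within an age. Old rTreg libraries stood above the other 5 groups for basophil and mast cell genes (10653 to 27799), and their G2/M sums of 47469 to 54730 stood above every other library except that of young kTreg mouse 1 (62674).

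The sort was visible in its own genes. Klrg1 (ENSMUSG00000030114, minus strand, chr6:122246981-122259914 of GRCm39) stood at 16559, 21310, 32088 and 20012 normalized counts in old kTreg cells of mice 1 to 4 and at 357, 197, 0.7 and 82 in their rTreg cells. Every kTreg library lay far above every rTreg library, and the rTreg library of mouse 3 held next to no Klrg1. Cd44 stood at 5514, 6050, 5138 and 5944 in kTreg and 2839, 3756, 2411 and 1733 in rTreg cells. These values describe the gates.

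Across all genes tested, 481 were higher in old kTreg cells (3.26% of those tested) and 474 were lower (3.21%), by a limma fit with the mouse as a block, an adjusted p below 0.05 and a fold above 1.5. The counts of gene list members given below are to be read beside these shares. The median fold was 3.09 among those higher and 2.79 among those lower, and all 955 moved the same way in 4 of 4 mice. The libraries of the 2 groups did not overlap for 453 of the 481 and 450 of the 474, against 17.5% of all genes tested. The calls favour genes whose differences are large and alike between mice, so these counts describe the called genes and are no separate support. Genes of other cells made up 6 of the 481 and 36 of the 474, against 146 of all 14745. The label is list membership and does not mean that Treg cells lack the gene. The 6 included Ikzf2, Prdm1 and Ccl5, and the 36 included Myb, which is also on the list of resting transcription factors. Some genes known from myeloid cells were on none of these lists and are not counted. Without mouse 3, whose rTreg library held the most basophil and neutrophil RNA, the counts were 317 higher and 386 lower. They were 208 and 281 without mouse 1, 202 and 217 without mouse 2 and 192 and 210 without mouse 4, and 131 of the higher and 168 of the lower genes kept their call in all 4 of these fits.

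Differences past 8-fold were found in 121 higher and 93 lower genes. Of the 121, 49 had a mean in rTreg cells no larger than that of 3 reads a library, so their fitted fold depends on the constant of 1 added before the logarithm. None of the 121 was a gene of other cells, and 21 of the 93 were.

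**Figure D2:**
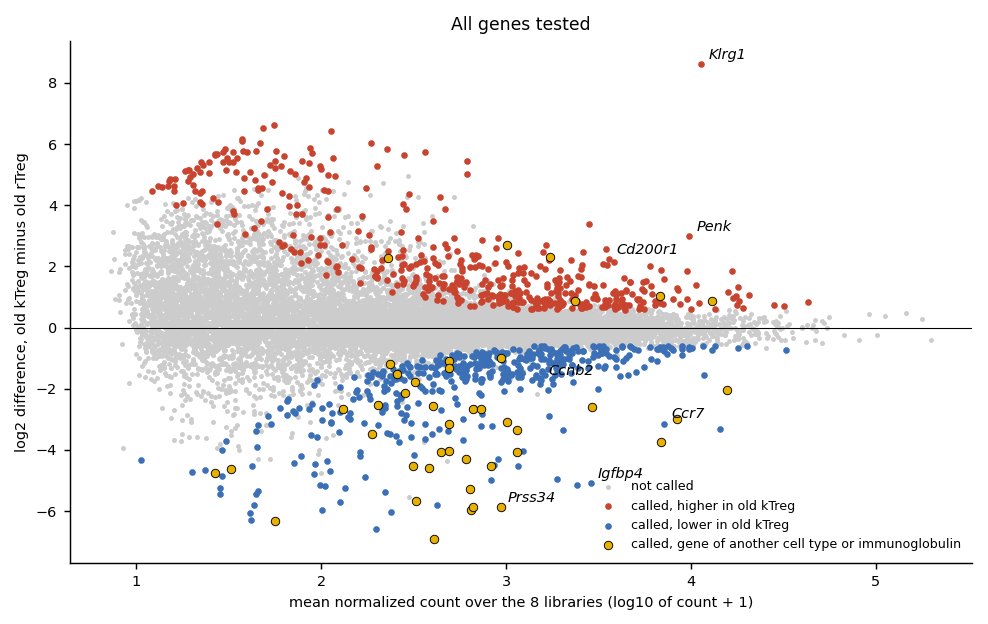
Log2 difference between old kTreg and old rTreg cells (vertical) against the mean normalized count over the 8 libraries (horizontal, log10 of count + 1) for the 14745 genes tested, 1 point a gene. Red and blue points are called genes higher and lower in kTreg cells, and yellow points are the 42 called genes of other cells, of which 36 lay below 0.

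Cd200r1, an inhibitory receptor for CD200, had the smallest p among the higher genes. It stood at 5140, 6255, 6125 and 6266 in kTreg cells of mice 1 to 4 and at 1264, 1257, 1239 and 1293 in rTreg cells (chr16:44586096-44615343 of GRCm39, plus strand), a log2 difference of 2.23 ± 0.11 (SE, n = 4 mice, limma adjusted p = 0.00042). The values within each group were close together and the groups were far apart. Old aTreg libraries held 1834 to 2536.

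The genes next in order by p were of mixed kind. Penk encodes proenkephalin, the precursor of opioid peptides. It stood at 16225, 16328, 18344 and 18379 in kTreg and 1559, 3388, 2590 and 1661 in rTreg cells (log2 difference 2.98 ± 0.20, limma adjusted p = 0.00073), so the lowest kTreg library was well above the highest rTreg library. Cd83, an immunoglobulin-superfamily membrane protein, rose from 2993 to 4138 in rTreg cells to 9900 to 11199 in kTreg cells. The tetraspanin Cd81 stood at 2587 to 3473 in rTreg and 8975 to 12868 in kTreg cells, and the small GTPase Arl5a at 1155 to 1693 and 5120 to 6358. Asb2, a substrate adaptor of cullin ubiquitin ligases, stood at 334 to 666 in rTreg and 4329 to 5973 in kTreg cells, a log2 difference of 3.39 ± 0.24. The Wnt carrier Wls (1.52 ± 0.11), the adhesion molecule Epcam (1.98 ± 0.15) and the lysosomal membrane protein Laptm4b (2.44 ± 0.19) also rose. The groups of these 8 genes did not overlap, and none of their calls was lost when any of the 4 mice was left out.

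Some of the largest differences lay in genes that were near 0 in some rTreg libraries and higher in others. Npnt, an integrin ligand of basement membranes, stood at 309, 392, 309 and 381 in kTreg cells of mice 1 to 4 and at 86, 8.3, 0.0 and 0.0 in rTreg cells. Nmur1, the receptor for neuromedin U, stood at 283, 530, 448 and 433 in kTreg and 0.0, 45, 0.0 and 60 in rTreg cells. Frmd5, a membrane protein of the FERM family, stood at 552, 928, 709 and 536 in kTreg and 1.0, 14, 4.2 and 154 in rTreg cells. The groups of these genes were apart, but the calls of Nmur1 and Frmd5 were lost without mouse 1 and that of Npnt without mouse 1, 2 or 4. Muc16, a membrane mucin, stood at 325 to 766 in kTreg and 0.0 to 85 in rTreg cells and kept its call throughout.

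Of 18 genes of the Treg signature, 9 rose and 2 fell, with a list median of 0.72 (log2) against 0.07 for all genes tested, and 7 rose and 2 fell without mouse 3. Foxp3 stood at 32111, 34841, 34365 and 37793 in kTreg and 26513, 20458, 13151 and 26265 in rTreg cells (log2 difference 0.74 ± 0.17, limma adjusted p = 0.043). The groups did not overlap, the rTreg library of mouse 3 was the lowest, and the call was lost without mouse 2, 3 or 4. Ctla4, which strips costimulatory ligands from antigen-presenting cells, rose from 7500 to 8593 in rTreg cells to 13016 to 15427 in kTreg cells (0.81 ± 0.10). The costimulatory receptors Tnfrsf4 (OX40, 1.05 ± 0.09), Tnfrsf18 (GITR, 1.04 ± 0.10) and Icos (0.94 ± 0.15) rose, as did the inhibitory receptor Tigit (1.67 ± 0.19), the E-cadherin-binding integrin chain Itgae (1.40 ± 0.18) and Ikzf2, which encodes Helios (1.03 ± 0.22). The call of Icos was lost without mouse 4 and that of Ikzf2, whose groups overlapped, without mouse 2 or 4.

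Other signature genes did not follow. Gpr83, an orphan receptor of Treg cells, fell from 4455, 2149, 2483 and 5464 in rTreg cells to 782, 158, 190 and 526 in kTreg cells (-3.34 ± 0.23), and mice 1 and 4 were the higher pair in both subsets. Lrrc32, which encodes GARP and displays latent TGF-β on the cell surface, fell from 4140 to 5924 in rTreg cells to 851 to 1858 in kTreg cells (-2.00 ± 0.16). Il2ra, the α-chain of the IL-2 receptor, stood at 5574, 5675, 4588 and 5709 in kTreg and 7021, 3334, 5027 and 6605 in rTreg cells. Its groups overlapped, mouse 2 went against the other mice, and its difference of 0.02 ± 0.18 was not called.

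**Figure D3:**
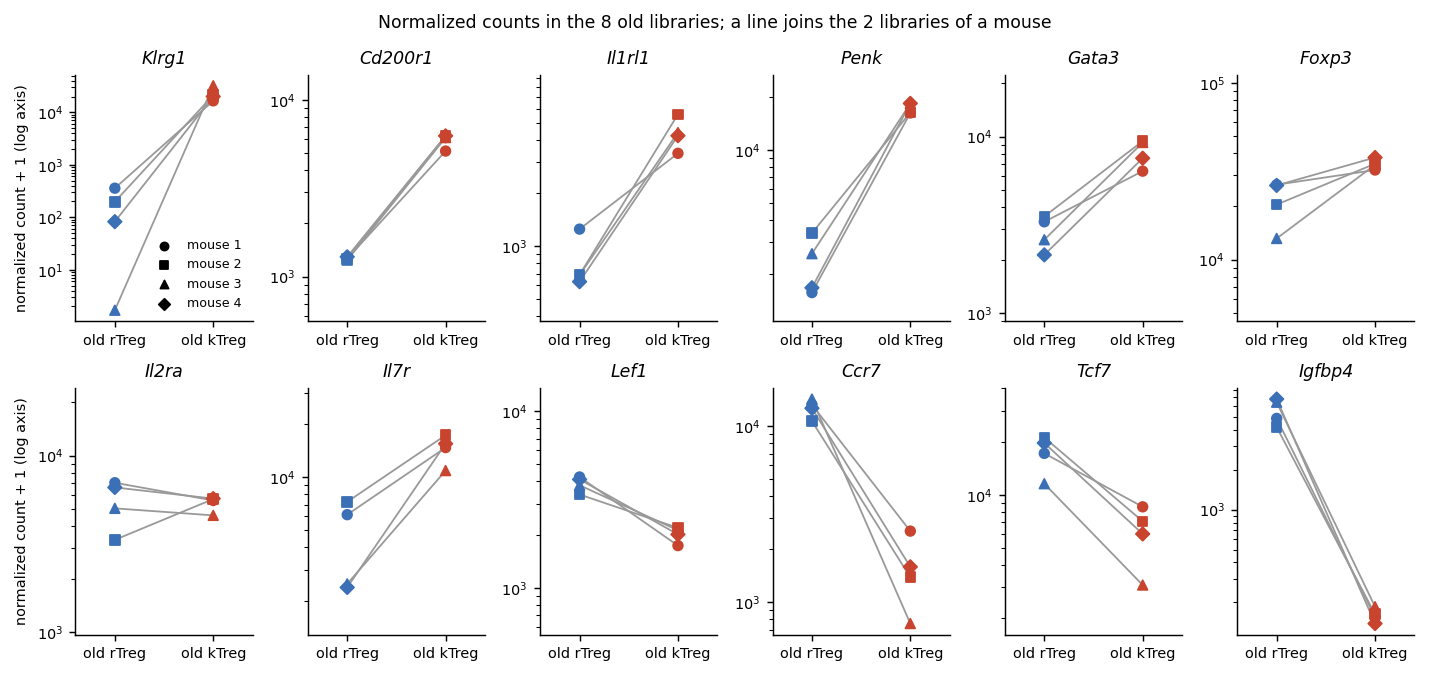
Normalized counts + 1 (log axes) of 12 genes in the 8 old libraries, with old rTreg on the left and old kTreg on the right of each panel and a line joining the libraries of a mouse. All 4 lines rose for Klrg1, Cd200r1, Il1rl1, Penk, Gata3, Foxp3 and Il7r and fell for Lef1, Ccr7, Tcf7 and Igfbp4, whereas those of Il2ra went both ways.

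Suppressive and repair mediators were higher, with 7 of 13 called, none lower and a median of 0.91 (6 called without mouse 3). Besides Penk and Ctla4 these were Ebi3, the shared subunit of IL-27 and IL-35 (274 to 423 in rTreg and 1501 to 1912 in kTreg cells), and Fgl2, a secreted suppressor (542 to 1705 and 5057 to 6482). Il10, an anti-inflammatory cytokine, stood at 390, 590, 514 and 297 in kTreg and 147, 227, 176 and 27 in rTreg cells (1.94 ± 0.40, limma adjusted p = 0.031). Its groups did not overlap, and its call was lost without mouse 1, 2 or 3. Areg, the epidermal growth factor family member amphiregulin, stood at 513, 1061, 724 and 526 in kTreg and 80, 189, 117 and 6.1 in rTreg cells (3.50 ± 0.63), and its call was lost without mouse 1. Gzmb, the protease granzyme B, stood at 1978, 1948, 1546 and 1055 in kTreg and 1057, 385, 457 and 284 in rTreg cells (1.72 ± 0.24). It was higher in kTreg cells within each mouse although the groups overlapped. Gzmb was the only one called of 12 granule genes.

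Of 20 effector transcription factors 11 rose and none fell, with a median of 1.16, and 9 rose without mouse 3. Id2, an antagonist of E proteins, stood at 7874, 9380, 8980 and 12252 in kTreg and 2774, 2824, 1837 and 2138 in rTreg cells (2.01 ± 0.18). Prdm1, which encodes BLIMP1, stood at 2227, 3582, 2947 and 2555 in kTreg and 728, 934, 382 and 396 in rTreg cells (2.29 ± 0.23). Gata3, a factor of type 2 lymphocytes and of ST2+ Treg cells, rose from 3288, 3527, 2602 and 2136 in rTreg cells to 6365, 9415, 9245 and 7535 in kTreg cells (2.84-fold, limma adjusted p = 0.0028). No kTreg library overlapped the rTreg libraries for these 3 genes. Pparg, the nuclear receptor of adipose tissue Treg cells, rose from 63 to 125 in rTreg cells to 282 to 641 in kTreg cells (2.33 ± 0.35), and Maf, a factor of IL-10-producing T cells, from 727 to 1358 to 2302 to 3122 (1.29 ± 0.19). Bhlhe40, a repressor induced on T cell activation, rose within every mouse (1.61 ± 0.17), and its groups overlapped because the rTreg library of mouse 2 stood at 4964 and the other 3 at 1118 to 1745. Batf, a factor of tissue Treg programming, differed by 0.61 ± 0.14 with overlapping groups and lost its call without mouse 1, 2 or 4.

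Transcription factors of the resting state went the other way, with 9 of 16 lower, none higher and a median of -0.79. Bach2, a repressor of effector genes, stood at 212, 293, 121 and 148 in kTreg and 941, 1174, 1067 and 1421 in rTreg cells (-2.63 ± 0.28). Tcf7, which encodes TCF1, stood at 8547, 7078, 3083 and 6003 in kTreg and 17163, 21091, 11551 and 19642 in rTreg cells (-1.55 ± 0.15), with mouse 3 the lowest in both subsets. Id3, which restrains E proteins (-1.77 ± 0.21), the chromatin organizer Satb1 (-1.59 ± 0.14), the quiescence factor Foxp1 (-1.26 ± 0.13) and Lef1 (-0.95 ± 0.14) also fell. None of these 6 genes overlapped between the groups. In old aTreg libraries Tcf7 stood at 14652 to 24003 and Lef1 at 1869 to 2022.

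**Figure D4:**
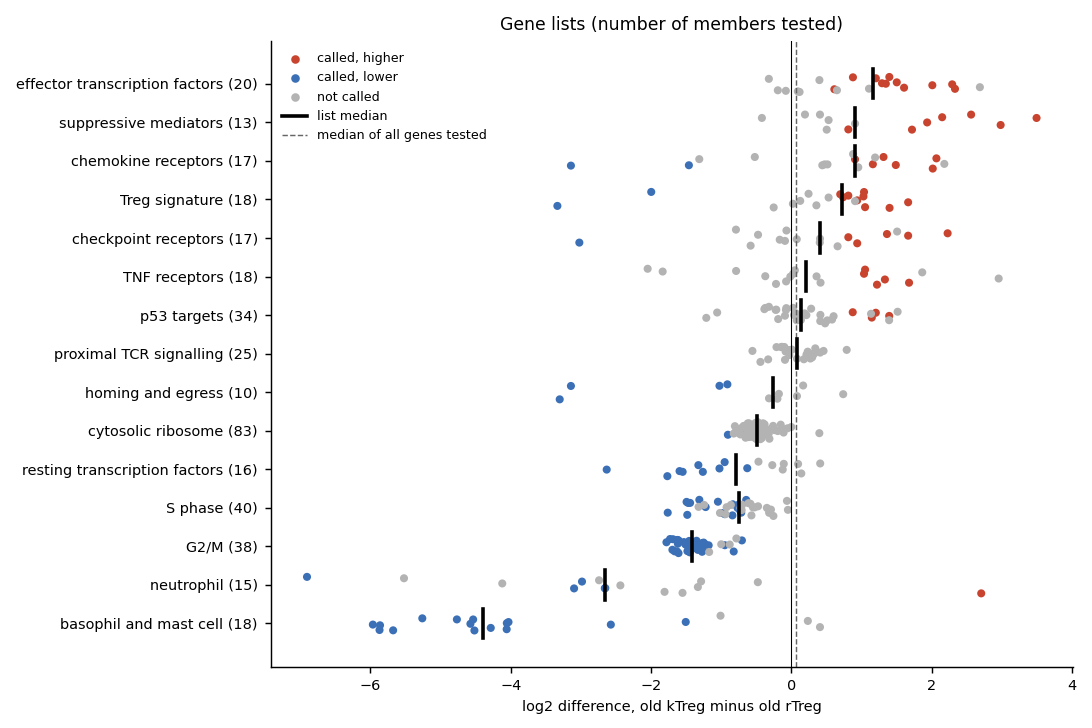
Log2 differences between old kTreg and old rTreg cells for the tested members of 15 gene lists, 1 point a gene, with list medians as black bars and the median of all genes tested (0.07) as a dashed line. The median of the effector factors lay at 1.16, and all 38 G2/M genes and all 40 S phase genes lay to the left of 0.

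Receptors for cytokines rose selectively. Il1rl1, which encodes ST2 (chr1:40468730-40504575 of GRCm39, plus strand), stood at 3355, 5579, 4395 and 4222 in kTreg and 1249, 688, 686 and 629 in rTreg cells (2.47 ± 0.25, limma adjusted p = 0.0026). The groups were apart, and the rTreg library of mouse 1 was the highest of its group. Old aTreg libraries held 139 to 257. Of 9 genes of the IL-1 receptor family, the IL-18 receptor chain Il18rap (0.84 ± 0.17) and the decoy receptor Il1r2 (0.93 ± 0.22) were the other 2 called. The call of Il18rap was lost without mouse 2, 3 or 4, and that of Il1r2, whose groups overlapped, without mouse 1, 2 or 4. Among 9 genes of the common γ-chain receptors, the IL-7 receptor chain Il7r rose from 6135, 7252, 2487 and 2376 in rTreg cells to 14713, 17293, 10897 and 15474 in kTreg cells (1.84 ± 0.24). Its lowest kTreg library stood above every rTreg library, and Il9r rose as well, from 171 to 586 to 1430 to 1962 (2.01 ± 0.28). Il4ra was lower (-0.75 ± 0.13), but its groups overlapped and the call was lost without mouse 1, 2 or 4.

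Of 18 TNF receptor genes, 5 rose and none fell. Besides Tnfrsf4 and Tnfrsf18 these were Tnfrsf1b, which encodes TNFR2 and sustains Treg cells (6484 to 12210 in rTreg and 24070 to 27490 in kTreg cells), Tnfrsf9, which encodes 4-1BB (1.22 ± 0.12), and Tnfrsf8, which encodes CD30 (1.68 ± 0.24). Of 17 checkpoint receptors 5 rose and 1 fell. Among them Pdcd1, which encodes PD-1, stood at 7845, 7720, 10061 and 9436 in kTreg and 3143, 4118, 4021 and 2517 in rTreg cells (1.36 ± 0.16), with no overlap. Of the 25 genes of proximal T cell receptor signalling limma and edgeR called 0 and DESeq2 1, with 10 at an unadjusted p below 0.05 in limma.

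Homing receptors differed in both directions. Ccr7, which guides cells into lymph nodes, stood at 2540, 1388, 757 and 1591 in kTreg and 13284, 10725, 14311 and 12686 in rTreg cells (-3.14 ± 0.26). The follicle receptor Cxcr5 fell from 1908 to 2626 in rTreg cells to 582 to 1015 in kTreg cells (-1.46 ± 0.18). Ccr8, a receptor of tissue Treg cells, rose from 1388, 1395, 832 and 1615 in rTreg cells to 4538, 5804, 5574 and 5504 in kTreg cells (2.07 ± 0.18), and the groups of these 3 genes were apart. The chemerin-binding Ccrl2 (2.02 ± 0.22), the skin-homing receptor Ccr4 (1.16 ± 0.23) and Cxcr6 (1.49 ± 0.29) rose too. The call of Ccr4 was lost without mouse 2 or 4 and that of Cxcr6 without mouse 1 or 4. Old aTreg libraries held 20659 to 32065 Cxcr6 and old kTreg libraries 4710 to 9016. In all, 6 of 17 chemokine receptors rose and 2 fell. Of 10 homing and egress genes 4 fell and none rose, among them Ccr7, the egress receptor S1pr1 (-0.91 ± 0.18, call lost without mouse 1 or 4) and its regulator Klf2 (-1.02 ± 0.14). Of 15 integrin chains, Itgb8, which activates latent TGF-β, rose from 203 to 289 in rTreg cells to 454 to 761 in kTreg cells, and its partner Itgav by 1.05 ± 0.16 (log2). Itga6, a laminin receptor chain, fell from 2133 to 3390 in rTreg cells to 918 to 1449 in kTreg cells. The call of Itgb8 was lost without mouse 2 and that of Itgav without mouse 1 or 4.

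Of 28 cytokine genes 5 rose and 3 fell, and 2 rose and 3 fell without mouse 3. Tnfsf11, which encodes RANKL, stood at 1762, 2054, 2334 and 2279 in kTreg and 617, 770, 500 and 560 in rTreg cells (1.79 ± 0.18). Il5, a cytokine for eosinophils, was at 29, 36, 27 and 51 in kTreg libraries and at 0 in all 4 rTreg libraries. It passed the filter on low values through the kTreg libraries alone. Its kTreg mean was 13.6-fold a floor of 3 reads a library, which covers the counting of reads and not of molecules. The Il5 call was lost when any mouse was left out. Il6, a pro-inflammatory cytokine, stood at 46, 59, 70 and 59 in kTreg and 131, 263, 454 and 353 in rTreg cells (-2.22 ± 0.36), and old aTreg libraries held 0.0 to 2.1. Osm, of the IL-6 family, was lower as well (-1.01 ± 0.15), as was lymphotoxin Lta (-0.95 ± 0.18). Calls were lost without mouse 2 for all 3, without mouse 4 for Il6 and without mouse 1 for Lta. Myeloid cells make Il6 and Osm too, and the marker sums of basophils and neutrophils were higher in the same rTreg libraries. Their part in these differences was not tested.

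Among 12 chemokine genes 5 rose and 4 fell. Ccl6 stood at 85, 66, 167 and 147 in kTreg and 2473, 1916, 9345 and 5200 in rTreg cells (-5.16 ± 0.21). Ccl9 stood at 49 to 127 in kTreg and 1005 to 4346 in rTreg cells, Ccl3 at 88 to 144 and 939 to 4905, and Ccl4 at 182 to 494 and 1236 to 7644. For all 4 the rTreg library of mouse 3, with the highest basophil and neutrophil sums, was the highest. Ccl6 and Ccl9 are chemokines of myeloid cells, and the part of other cells in these 4 differences was not tested. On the other side, Cxcl10, an interferon-induced chemokine, rose from 63 to 413 in rTreg cells to 751 to 1302 in kTreg cells (2.28 ± 0.35). Ccl1, a ligand of CCR8, stood at 288, 109, 202 and 148 in kTreg and 21, 9.4, 0.0 and 0.8 in rTreg cells, and Ccl5, a chemokine of memory and effector T cells, differed by 0.88 ± 0.17. The calls of Cxcl10, Ccl1 and Ccl5 were all lost without mouse 1, those of Ccl1 and Ccl5 also without mouse 4 and that of Ccl5 also without mouse 3.

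Feedback inhibitors of cytokine signalling moved in opposite directions. Cish, induced by STAT5, stood at 11372, 13460, 11253 and 11816 in kTreg and 4707, 5214, 4689 and 5020 in rTreg cells (1.28 ± 0.09, limma adjusted p = 0.00081). Socs3, induced by STAT3, stood at 2892, 2426, 2251 and 3262 in kTreg and 8769, 7061, 5447 and 8399 in rTreg cells (-1.44 ± 0.10, limma adjusted p = 0.00096). Neither overlapped between the groups. The kinase Tyk2 (0.75 ± 0.13, call lost without mouse 1 or 4) was the only other gene called of 19 STAT, JAK and SOCS genes. Of 19 immediate early genes, a list that includes phosphatases, 2 rose and none fell, with a median of 0.36. The phosphatase Dusp1 rose from 5487 to 10610 in rTreg cells to 15633 to 39704 in kTreg cells (1.84 ± 0.16), and Dusp5 from 1001 to 1864 to 2766 to 4180 (1.24 ± 0.18). The phosphatases Dusp4 (-0.87), Dusp10 (-0.71) and Dusp2 (-0.13) lay below 0 and were not called. The stress chaperone Hspa1b rose within each mouse, from 216, 1265, 1651 and 251 in rTreg cells to 1142, 2978, 8694 and 1831 in kTreg cells. Its near copy Hspa1a rose from 75 to 457 to 359 to 2699, and reads can be divided uncertainly between the pair. Both were highest in mouse 3 in both subsets, and the groups overlapped. They were the only 2 called of 33 unfolded protein and heat shock genes, whose median was 0.07.

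Survival genes of the BCL2 family split, with 2 higher and 1 lower of 16. Bcl2 stood at 1919, 1742, 1202 and 2268 in kTreg and 4328, 3797, 3108 and 3743 in rTreg cells (-1.10 ± 0.14), with no overlap. Bcl2l1, which encodes BCL-XL, rose from 890 to 1327 in rTreg cells to 1606 to 2268 in kTreg cells (0.88 ± 0.18), with the call lost without mouse 1, 2 or 3. Bcl2a1b rose (1.04 ± 0.12), but it is one of several near-identical Bcl2a1 genes and its count is uncertain. Cdkn1a, which encodes the kinase inhibitor p21 and is a p53 target, stood at 266, 497, 267 and 173 in kTreg and 104, 220, 157 and 24 in rTreg cells (1.52 ± 0.40, limma adjusted p = 0.066). It was higher in each mouse, but the groups overlapped and it was not called. Of 34 p53 targets 4 rose (11.8%, beside 3.26% of all genes) and none fell, with a median of 0.14 against 0.07 for all genes tested. Without mouse 3, 2 rose and 1 fell. The 4 were the stress genes Gadd45b (1.40 ± 0.16) and Plk3 (1.21 ± 0.16), Bcl2l1, and Phlda3 (1.15 ± 0.27), whose call was lost when any mouse was left out. Of 10 genes of kinase inhibitors and pocket proteins, Cdkn2d, an inhibitor of CDK4 and CDK6, fell from 3453 to 5237 in rTreg cells to 1717 to 2095 in kTreg cells (-1.26 ± 0.12). Rbl2, a pocket protein of quiescent cells, rose from 1761 to 4148 to 7250 to 7874 (1.28 ± 0.21).

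Cell cycle genes were lower together. Of 38 G2/M genes, 34 were lower in old kTreg cells and none higher, with a median of -1.42, beside 3.21% of all genes lower. Of 40 S phase genes 18 were lower and none higher, with a median of -0.74. Ccnb2, a mitotic cyclin (ENSMUSG00000032218, minus strand, chr9:70314966-70328874 of GRCm39), stood at 644, 740, 982 and 542 in kTreg and 2250, 2180, 2787 and 2252 in rTreg cells (-1.73 ± 0.15, limma adjusted p = 0.0015). Top2a, which untangles chromosomes, stood at 1435, 1717, 1196 and 1091 in kTreg and 3055, 3800, 2844 and 2944 in rTreg cells (-1.23 ± 0.12). Cdk1, the mitotic kinase, stood at 457, 367, 638 and 351 in kTreg and 1154, 1192, 2147 and 1402 in rTreg cells (-1.69 ± 0.17). The groups of these 3 genes were apart. The mitotic genes Birc5 (-1.63 ± 0.15) and Aurka (-1.78 ± 0.18), the microtubule regulators Tacc3 (-1.55 ± 0.13) and Stmn1 (-1.54 ± 0.12) and the anaphase activator Cdc20 (-1.25 ± 0.13) fell as well. Mki67, the proliferation marker Ki-67, stood at 532, 1204, 1012 and 572 in kTreg and 1055, 1822, 1579 and 1699 in rTreg cells (-0.95 ± 0.19). Its groups overlapped, and its call was lost without mouse 1, 2 or 4. In S phase the ribonucleotide reductase subunit Rrm2 fell from 4322 to 5792 in rTreg cells to 1732 to 2159 in kTreg cells (-1.31 ± 0.12), and the transcription factor E2f2 (-1.47 ± 0.18), the cyclin Ccne1 (-1.44 ± 0.20) and the sliding clamp Pcna (-0.73 ± 0.11, call lost without mouse 2) fell.

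The sums of these lists were high in old rTreg cells. G2/M genes summed to 47469, 49822, 54730 and 50903 in old rTreg and 20258, 20418, 22773 and 15715 in old kTreg libraries of mice 1 to 4. They summed to 11048 to 16572 in old aTreg libraries and, in young mice, to 10710 to 32586 in rTreg and 30032 to 62674 in kTreg libraries. S phase genes summed to 74329 to 87244 in old rTreg and 44372 to 53782 in old kTreg libraries. The G2/M count was 34 without mouse 3, 25 without mouse 1, 25 without mouse 2 and 24 without mouse 4, and the S phase count 19, 14, 3 and 5. Among 10 genes of blood progenitors, which cycle, 4 fell (Gata2, Gata1, Myb and Flt3) and 1, Ikzf2, rose. Gata2 is also on the basophil list and Myb on that of the resting transcription factors. The sums of the progenitor list, Ikzf2 included, overlapped, at 7625 to 9868 in old rTreg and 7018 to 11570 in old kTreg libraries. The part of other cycling cells in the G2/M and S phase differences was not tested.

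Cell cycle genes share letters in their promoters. CCAAT boxes bind the factor NF-Y, TTTGAA is a common form of the cell cycle homology region read by MuvB complexes, and TTTCCCGC and TTTGGCGC are forms of the E2F site. Each was searched on both strands from 250 bases before to 50 bases after the first listed start of each gene in RefSeq (GRCm38.p6). Among the 31 of 38 G2/M genes with a window, 24 held CCAAT (77.4%) and 23 held TTTGAA (74.2%), and the shares were 37.9% and 18.1% among all 27025 promoters and 39.1% and 12.4% among the 9931 genes tested that had a window. Both were found together in 21 of the 31 (67.7%), in 7.12% of all promoters and in 5.14% of those of genes tested. Either E2F form was found in 0 of the 31, in 1.63% of all promoters and in 3.19% of those of genes tested. Only 30 of 40 S phase genes had a window, so shares describe these 30 and not the whole list. Of the 30, 17 held CCAAT (56.7%), 4 held TTTGAA (13.3%) and 3 held both (10%). Either E2F form was found in 11 of the 30 (36.7%). No motif searched contains another on either strand, although neighbouring matches can share end bases. A match is a description of letters and not of binding.

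Windows of Ccnb2, Top2a and Cdk1 are shown to make these letters visible, since of the G2/M genes that held both motifs they had the smallest p. Each runs 5′ to 3′ in the direction of the gene, on the minus strand, from shortly before its first match to the base before the first listed RefSeq start. Matches of either motif, read on either strand, are in capitals. The windows matched GRCm39 exactly at 1 place on their chromosome, which was chr9:70328837-70329013 for Ccnb2, chr11:98915016-98915252 for Top2a and chr10:69188743-69188960 for Cdk1. Ccnb2 held 3 CCAAT boxes and 1 TTTGAA, Top2a 6 and 2, and Cdk1 3 and 2.
Ccnb2: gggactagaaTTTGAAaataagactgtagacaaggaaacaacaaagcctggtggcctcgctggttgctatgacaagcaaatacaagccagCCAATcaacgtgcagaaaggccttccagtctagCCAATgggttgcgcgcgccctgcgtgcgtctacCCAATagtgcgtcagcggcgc
Top2a: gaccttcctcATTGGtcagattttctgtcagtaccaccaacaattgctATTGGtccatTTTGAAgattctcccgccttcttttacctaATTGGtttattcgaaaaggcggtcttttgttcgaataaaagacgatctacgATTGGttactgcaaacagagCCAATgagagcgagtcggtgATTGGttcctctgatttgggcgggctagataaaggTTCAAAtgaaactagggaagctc
Cdk1: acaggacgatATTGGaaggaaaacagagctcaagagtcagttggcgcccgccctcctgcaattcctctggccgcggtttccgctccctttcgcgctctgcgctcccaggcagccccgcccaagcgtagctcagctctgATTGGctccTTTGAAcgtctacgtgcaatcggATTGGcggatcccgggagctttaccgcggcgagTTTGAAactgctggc

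Genes of protein synthesis and energy metabolism leaned lower in kTreg cells, mostly without calls. Of 83 cytosolic ribosome genes 81 lay below 0 (median -0.49) and 4 were called lower (1 without mouse 3), and the medians of the list within mice ran from -1.09 in mouse 3 to -0.00 in mouse 1. Of 78 mitochondrial ribosome genes, 49 complex I genes and 59 genes of complexes II to V, limma called 0, edgeR 0 and DESeq2 2, 2 and 3, with 17, 8 and 16 at an unadjusted p below 0.05 in limma. Their medians were -0.28, -0.29 and -0.28. Within mice these medians were -0.02, -0.04 and -0.03 in mouse 1, -0.29, -0.29 and -0.26 in mouse 2, and -0.12, -0.07 and -0.11 in mouse 4. They were -0.68, -0.86 and -0.75 in mouse 3, whose rTreg library held the highest sums of basophil and neutrophil genes. The part of that library was not tested. Myc, which drives growth, stood at 1855, 1438, 1072 and 1758 in kTreg and 3050, 2615, 2632 and 3078 in rTreg cells (-0.92 ± 0.14), with no overlap. Of 26 glycolysis genes 1 fell and 1 rose (3.85% each), near the 3.21% lower and 3.26% higher among all genes. Lactate dehydrogenase Ldha fell from 36883 to 49950 in rTreg cells to 21897 to 27391 in kTreg cells, and the glucose transporter Slc2a3 rose by 0.68 ± 0.16 (log2) with a call that was lost without mouse 1, 2 or 3. Of 28 cholesterol and fatty acid genes 4 fell and none rose, among them the desaturase Scd2 (-1.06 ± 0.17, call lost without mouse 2 or 4).

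Igfbp4, which binds insulin-like growth factors, had the smallest p of all genes tested (chr11:98932064-98945218 of GRCm39, plus strand). It stood at 154, 162, 185 and 138 in kTreg and 4865, 4183, 6438 and 6802 in rTreg cells (-5.10 ± 0.19, limma adjusted p = 0.00012). The values within each group were close together, and Igfbp4 averaged 5891 in young rTreg and 597 in young kTreg cells. Rab3ip, an exchange factor of membrane traffic, fell from 1629 to 2083 in rTreg cells to 436 to 504 in kTreg cells (-2.00 ± 0.14), and the receptor Gpr18 from 2204 to 3344 to 477 to 893 (-2.04 ± 0.17).

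Several other genes with very small p are known from myeloid cells, although they were on none of the lists of other cells. Emilin2, an extracellular matrix protein, stood at 23, 60, 59 and 58 in kTreg and 1161, 1088, 1762 and 2379 in rTreg cells, and old aTreg libraries held 4.5 to 25. Rab44, a GTPase of mast cell granules, stood at 8.4, 11, 18 and 17 in kTreg and 457, 754, 1268 and 848 in rTreg cells. The groups of both were far apart, and young rTreg cells averaged 52 and 16. The cytochrome Cyp4f18 (-4.30 ± 0.31) and the complement receptors C3ar1 (call lost without mouse 1) and C5ar1 (call lost without mouse 2 or 4) had 764 to 3555, 132 to 707 and 120 to 335 in rTreg cells.

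Of the 18 basophil and mast cell genes 15 fell and none rose, with a median of -4.40 (14 without mouse 3). Hdc, which makes histamine, stood at 36, 81, 81 and 55 in kTreg and 804, 1249, 3155 and 1199 in rTreg cells. Prss34, a basophil protease, stood at 9.4, 304, 5.7 and 17 in kTreg and 620, 3401, 2111 and 1013 in rTreg cells, and Mcpt8, another, at 479 to 1984 in rTreg cells. Mouse 2 was the highest in both subsets for Prss34, and young rTreg cells averaged 6.9. Gata2, a factor of basophils and progenitors, stood at 12 to 63 in kTreg and 788 to 1731 in rTreg cells and averaged 8.3 in young rTreg cells. Gata1, of the same family, fell from 634 to 1157 in rTreg cells to 55 to 190 in kTreg cells, but it averaged 1690 in young rTreg cells.

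Of 15 neutrophil genes tested 5 fell and 1 rose, with a median of -2.65 (4 fell without mouse 3). The granule gene Ngp stood at 13, 453, 405 and 3.9 in kTreg and 1.0, 5293, 4376 and 0.0 in rTreg cells of mice 1 to 4. The alarmin gene S100a9 stood at 2.1, 377, 254 and 5.3 in kTreg and 2.0, 2684, 5193 and 2.3 in rTreg cells. Both were high in mice 2 and 3 and near 0 in mice 1 and 4, in both subsets, and neither was called. Lyz2, a lysozyme shared with macrophages, fell from 9381 to 25153 in rTreg cells to 1453 to 2268 in kTreg cells. Among 14 plasma cell genes 2 fell and 1 rose. Jchain, which links antibody chains, stood at 1819, 225, 559 and 1243 in kTreg and 3280, 4212, 9158 and 2941 in rTreg cells, with a call that was lost without mouse 2, 3 or 4. The plasma cell gene that rose was Prdm1, which effector Treg cells use too. Of 30 immunoglobulin segments tested 3 fell and none rose. Of 13 B cell genes 3 fell and 1 rose. The gene that rose was Cd74, of antigen presentation, at 15371 to 18892 in kTreg and 7134 to 10964 in rTreg cells (0.87 ± 0.11). Those that fell were the B cell scaffold Bank1 (-1.79 ± 0.29, call lost without mouse 2 or 4) and the MHC class II genes H2-Ab1 (-0.98 ± 0.16, call lost without mouse 1 or 2) and H2-Aa (-1.09 ± 0.225, call lost without mouse 1, 2 or 4). The 19 macrophage and monocyte genes summed to 12929 to 31391 in old rTreg and 7537 to 10694 in old kTreg libraries, of which Lyz2 made up a large part in rTreg cells. Of the 16 tested, Lyz2 was the one that fell and Hmox1, which breaks down haem, the one that rose (2.28 ± 0.42, call lost without mouse 2 or 4), and the median of the list was 0.59. Bank1, H2-Aa and Hmox1 were chosen after their values were seen.

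The same subsets in young mice share no library with the old comparison. Of the 481 genes higher in old kTreg cells, 402 were higher by over 1.5-fold in young kTreg cells on average, a direction taken by 17.4% of all genes tested, and 11 were lower by as much. Of the 474 genes lower in old kTreg cells, 271 were lower by over 1.5-fold in young mice, against 26.4% of all genes, and 82 were higher by as much. Median log2 differences of the higher genes were 1.63 in old and 1.67 in young mice, and those of the lower genes -1.48 and -0.88.

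**Figure D5:**
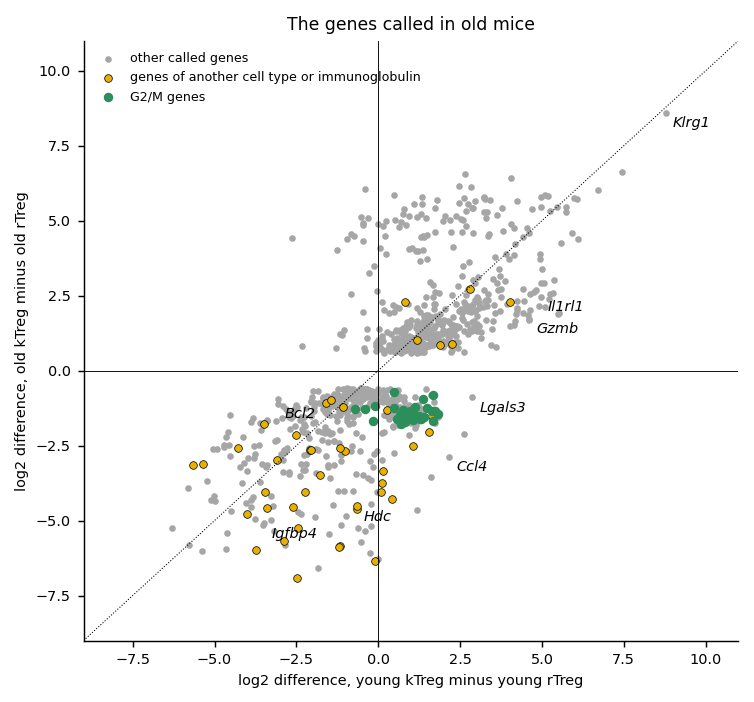
Log2 difference between kTreg and rTreg cells in old mice (vertical) against young mice (horizontal) for the 955 genes called in old mice, with a dotted line where both are equal. Green points are the 34 called G2/M genes, below 0 in old and mostly above 0 in young mice, and yellow points are the 42 called genes of other cells.

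The difference between ages was tested as an interaction in limma over 16 libraries and 15978 genes, with the mouse as a block. It called 23 genes with a higher kTreg difference in old mice (0.144%) and 132 with a lower one (0.826%), beside a median of 0.19 over all genes. Among the 132 were 21 G2/M genes, 3 S phase genes and 6 genes of other cells. In 85 of the 132 the old difference was below 0 and the young one above it, and in 44 both were above 0. The count rested on single mice. Without old mouse 1, old mouse 4, young mouse 1 or young mouse 3 limma called 0 genes, although 1653 to 1996 had an unadjusted p below 0.05 (2273 with all mice). It called 1 without old mouse 2, 4 without old mouse 3, 235 without young mouse 2 and 419 without young mouse 4. With all mice, edgeR called 59 and DESeq2 740. The young kTreg library of mouse 2 held a macrophage sum of 65466 against 9414 to 10848 in the other 3, and that of mouse 4 had 4913 genes at 0.

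The G2/M difference had medians of opposite sign at the 2 ages. Its median was -1.42 in old and 0.94 in young mice, all 38 genes lay below 0 in old mice, and 33 of 38 lay above 0 in young mice. The young mice were not alike, since the G2/M sum was higher in kTreg than in rTreg cells of mice 1, 3 and 4 (62674, 35312 and 34727 against 27306, 11471 and 10710) but not of mouse 2 (30032 against 32586). Ccnb2 averaged 1571 in young kTreg and 954 in young rTreg cells, and the old minus young difference was -2.55 (limma adjusted p = 0.024). That of Top2a was -2.35 and that of Rrm2 -2.41, both called. Annexin Anxa2 fell from 5916 to 11244 in old rTreg cells to 2695 to 3956 in old kTreg cells but averaged 4019 in young kTreg and 2513 in young rTreg cells (old minus young -1.98). Lgals3, which encodes galectin-3, stood at 1478 to 3770 in old rTreg and 940 to 1467 in old kTreg cells and averaged 355 in young rTreg and 2359 in young kTreg cells (-3.76). Osm (-1.11) and Ccl4 (-5.03) were called too. Macrophage and monocyte genes summed to 12929 to 31391 in old rTreg and 1509 to 12573 in young rTreg libraries. The part of other cells in the Anxa2, Lgals3, Osm and Ccl4 differences was not tested. In old mice alone the Lgals3 call was lost without mouse 1, 2 or 4.

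For several effector genes both ages had the same direction and the old difference was smaller. Il1rl1 differed by 2.47 in old and 4.97 in young mice (old minus young -2.50, limma adjusted p = 0.027). Its mean was 4388 in old and 4904 in young kTreg cells and 813 in old and 157 in young rTreg cells, so the rTreg libraries were further apart than the kTreg libraries. Basophil and mast cell genes summed to 10653 to 27799 in old rTreg and 760 to 1045 in young rTreg libraries. The part of other cells in the Il1rl1 levels was not tested. Gzmb differed by 1.72 and 4.62 (-2.90), with a mean of 5966 in young kTreg cells. Itgae (-2.08), Icos (-1.51), Maf (-1.85), the inhibitory receptor Lilrb4a (-2.76) and Ctla4 (-0.74) were called in the same direction. Ccr2, the receptor for CCL2, is also on the macrophage and monocyte list. It averaged 488 in young rTreg cells and stood at 1286 to 3853 in old rTreg cells (-3.38), and it was not called in old mice (0.88, limma adjusted p = 0.052). Fam234a, a membrane protein, and Lgmn, a lysosomal protease, were not called in old mice (-0.07 ± 0.16 and -0.29 ± 0.21) but were higher in young kTreg cells by 2.25 and 2.43 (log2).

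A few genes went the other way. Bcl2 differed by -1.10 in old and -3.07 in young mice, where kTreg cells averaged 750 and rTreg cells 6198 (old minus young 1.97, limma adjusted p = 0.023). Cish differed by 1.28 in old and 0.26 in young mice (1.03). Tgtp1, an interferon-induced GTPase, was not called in old mice (-0.10 ± 0.11) and averaged 1071 in young kTreg and 3532 in young rTreg cells (1.62). Igf2r, the receptor that clears IGF2, differed by -1.32 in old and -2.56 in young mice (1.24). Enpp4, an ectoenzyme, differed by 2.05 between ages, and its call in old mice (0.75 ± 0.15) was lost when any mouse was left out.

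Few members of the remaining lists were called, beside 3.26% of all genes called higher and 3.21% called lower. For interferon-stimulated genes (2.63% and 5.26%) and lysosome genes (0% and 6.06%) the shares were near these. Of 38 interferon-stimulated genes 2 fell, which were Usp18, a brake of interferon signalling (-1.23 ± 0.14), and Slfn1 (-0.84 ± 0.11), and 1 rose, Slfn8 (1.00 ± 0.21, call lost without mouse 2, 3 or 4). Of 18 S100, annexin and galectin genes 1 rose, S100a11, a calcium-binding protein (0.62 ± 0.12, call lost without mouse 1, 2 or 4), and 2 fell, Anxa2 and Lgals3. Of 15 killer lectin receptor genes Klrg1 rose and 1 fell. Of 33 lysosome genes 2 fell and none rose.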

How the data were processed

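Sorted splenic Treg subsets of 4 young and 4 old mice were sequenced from polyA RNA with paired reads of 150 bases. The deposited values are a normalized signal: per the submitters' processing notes the authors used HISAT2 2.2.1, SAMtools 1.13, HTSeq 1.99.2 and DESeq2 1.44.0 with GRCm39, and the table holds read counts divided by a size factor for each library. The annotation release, strand setting and treatment of reads with several matches were not given in the sources used here. Every value was within 0.001 of a whole multiple of the value of 1 read in its library (0.694 to 1.31 in the 8 libraries compared), so reads were recovered for count tests. In old rTreg mouse 1 that value was 1.0013, close to 1, and 0.090% of the values above 0 were whole at a value of exactly 1. No molecular identifiers were used, so counts cover counting error of reads and not of molecules.

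Genes with a value of 10 or more in at least 4 of the libraries compared were fitted as log2(value + 1) with limma 3.58.1 (R 4.3.3), trend and the mouse as a block. Fold changes are on that scale and understate changes of low genes. P-values were adjusted by Benjamini-Hochberg over all genes tested, and calls needed an adjusted p below 0.05 and a fold above 1.5. Subsets came from the same mice by the series' design. The correlations of same-mouse deviations from the group means were 0.091, 0.165, 0.112 and 0.065, and the median between mice was -0.039. Such deviations sum to 0 in each group, which pushes values between mice below 0 when same-mouse values lie above it. The median between mice is therefore no independent reference. Alternatives were edgeR 4.0.16 quasi-likelihood and DESeq2 1.42.0 on recovered reads, TMM scaling, other pseudocounts and filters, no block, all 24 libraries and each mouse left out. The fit was tested on simulated data.

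Members and lists were chosen with earlier results of these data known. Genes were named by a rule: sort markers, smallest p and largest fold in each direction outside other-cell lists, called list members by p, a set of Treg genes, abundant other-cell genes and the strongest age differences. Some genes are not reported here.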

Additional observations from a re-analysis of the deposited data

Results flagged for a closer look

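In 27 of 318 sets of 4 libraries looked at, 1 library stood apart from the other 3 of its group by Dixon's criterion, which chance alone meets in about 1 of 20 sets. In old rTreg cells the library of mouse 3 was the highest for Ccl4 (7644), Ccne1 (1279), Ccnb2 (2787), Stmn1 (9023), Ldha (49950) and H2-Ab1 (2325) and the lowest for Tnfrsf1b (6484). The library of mouse 1 was the highest for Il1rl1 (1249), Il18rap (1270) and Npnt (86.1), that of mouse 2 for Bhlhe40 (4964) and Tyk2 (3433), and that of mouse 4 for Frmd5 (154) and Enpp4 (850), while S100a11 was lowest there (2388). In old kTreg cells the library of mouse 1 was the lowest for Cd200r1 (5140), Ikzf2 (5675), Emilin2 (23.1) and the summed progenitor genes (7018) and the highest for Il4ra (4858) and C3ar1 (14.7). The library of mouse 2 was the highest for the basophil proteases Prss34 (304) and Mcpt8 (179), and that of mouse 3 was the highest for Ebi3 (1912), Cdkn2d (2095) and H2-Ab1 (1048) and the lowest for Il2ra (4588).

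In 31 named genes the kTreg difference in old mice differed from that in young mice by the limma interaction, given here as old minus young on the log2 scale. Among cell cycle genes these were Birc5 (-2.70), Ccnb2 (-2.55), Aurka (-2.48), Rrm2 (-2.41), Top2a (-2.35), Tacc3 (-2.35), Stmn1 (-2.01), E2f2 (-1.82), Cdc20 (-1.73) and Ccne1 (-1.70). Among receptors and effector genes they were Ccr2 (-3.38, also on the macrophage and monocyte list), Gzmb (-2.90), Lilrb4a (-2.76), Il1rl1 (-2.50), Itgae (-2.08), Maf (-1.85), Icos (-1.51) and Ctla4 (-0.74). The others with a lower old difference were Ccl4 (-5.03), Hdc (-3.86), Lgals3 (-3.76), Lgmn (-2.72), Fam234a (-2.32), Anxa2 (-1.98), S100a11 (-1.60) and Osm (-1.11). A higher old difference was found for Enpp4 (2.05), Bcl2 (1.97), Tgtp1 (1.62), Igf2r (1.24) and Cish (1.03).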

How the results depend on the processing

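The numbers of genes higher and lower in old kTreg cells (481 and 474) were 1096 and 757 with DESeq2, 326 and 361 with edgeR, 867 and 525 in a fit of all 24 libraries, and 1491 and 975 at an unadjusted p with the same fold. With a mouse left out they ranged from 192 to 317 and from 210 to 386. Of the calls, 99.6% were also made by DESeq2, 71.2% by edgeR and 98.3% after TMM scaling. Without the replicate block the counts were 503 and 507, and 12 of 137 called genes of the text lost their call (Foxp3, Il10, Il1r2, Ccl5, Batf, Mki67, Slfn1, Hspa1b, Hspa1a, Lgals3, H2-Ab1 and H2-Aa). The age difference was called for 740 genes with DESeq2, 59 with edgeR, 269 without the replicate block and 0 to 419 with a mouse left out (155 in limma with all mice). No called gene of the text changed direction under these alternatives. Of those not called, Il2ra ranged from -0.23 to 0.14 and Fam234a from -0.19 to 0.02 with a mouse left out (log2). The causes of these changes were not tested. The medians of 7 lists near 0 changed sign with a mouse left out. Folds of genes at a few reads in one group are uncertain, and 4 mice limit the precision of every difference. Genes at 0 did not follow depth, since old rTreg libraries had more of them than old kTreg libraries. The old rTreg libraries held 18824371 to 29521942 reads and the old kTreg libraries 15045747 to 21594191.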
